A study of Homo sapiens with 14 samples.

Results

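NRF2, encoded by *NFE2L2*, is the transcription factor that turns on antioxidant and detoxification genes, and its response was followed here through 36 genes of the pathway among the 26732 gene symbols that the A549 and H1792 count tables share. The 36 genes were taken by symbol and comprise the factor with its partners and inhibitor (*NFE2L2*, *MAFG*, *KEAP1*) and 33 genes known as its targets. All 36 symbols were found in both tables. Their mRNA was counted by sequencing in A549 and H1792, established human lung adenocarcinoma cell lines. AMG900, which inhibits all aurora kinases, was given at 0.1 µM for 48 h, and control cells received the solvent DMSO. A549 was represented by 4 DMSO and 4 AMG900 libraries and H1792 by 3 DMSO and 3 AMG900 libraries. A549 carries a mutant *KEAP1*, and the *KEAP1* state of H1792 was not given in the sources used here. A549 was grown in DMEM and H1792 in RPMI 1640, and each line has its own table, so line, medium and table cannot be told apart in any comparison between the lines. Each line is a single established culture, and the labels do not say whether libraries of a group came from separate passages or days. The p-values therefore measure the spread between these libraries, which may be technical.

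In resting cells the adaptor KEAP1 holds NRF2 and hands it to a CUL3 ubiquitin ligase for degradation. Oxidants and electrophiles modify KEAP1, NRF2 accumulates, pairs with a small MAF protein such as MAFG and binds antioxidant response elements (AREs) near genes for glutathione and thioredoxin metabolism, NADPH supply, detoxifying reductases, iron storage and export pumps. Loss of KEAP1 function leaves NRF2 active without stress, and lung adenocarcinoma is a tumour in which this is often seen. The comparison of AMG900 with DMSO asked whether inhibition of aurora kinases moved these genes. The comparison of the DMSO libraries gave their levels in each line without AMG900.

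To show the element to which NRF2 binds, the letters of its core, TGACNNNGC on either strand, were searched in the 250 bases before the RefSeq start sites (build GRCh38.p14). Promoters were found in the RefSeq table for 27 of the 36 genes. The core was present for 9 of these 27 (33.3%) and for 13.2% of the 27305 genes in the table. A stricter form with every letter fixed, TGACTCAGC, which is a case of the core, was present for *ME1* alone among the 27 and for 0.568% of all genes. These counts describe letters in a short window and do not show binding. Below are the windows around the core for the inhibitor and for 5 targets with different responses, in lower case with the match in capitals and read 5′ to 3′ along the strand of the gene.
KEAP1 promoter, chr19:10502772-10502828, minus strand: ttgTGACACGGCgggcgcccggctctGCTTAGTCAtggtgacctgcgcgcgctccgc
GCLM promoter, chr1:93909431-93909490, minus strand: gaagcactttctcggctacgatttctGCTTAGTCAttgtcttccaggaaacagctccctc
TXNRD1 promoter, chr12:104286904-104286964, plus strand: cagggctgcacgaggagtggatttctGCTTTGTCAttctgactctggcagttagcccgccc
GPX2 promoter, chr14:64942833-64942893, minus strand: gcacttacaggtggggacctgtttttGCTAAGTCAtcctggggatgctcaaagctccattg
ME1 promoter, chr6:83431154-83431214, minus strand: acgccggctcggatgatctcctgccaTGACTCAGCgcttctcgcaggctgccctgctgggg
EPHX1 promoter, chr1:225825250-225825310, plus strand: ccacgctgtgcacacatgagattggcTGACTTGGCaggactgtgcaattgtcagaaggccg
*KEAP1* holds the core on both strands, and *GCLM* and *KEAP1* share the 9 letters GCTTAGTCA. The other genes with a match were *PGD*, *CYP4F11* and *CBR1*.

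Library totals ranged from 4254644 to 16381683 counts in A549 DMSO, from 10932815 to 18962883 in A549 AMG900, from 42810734 to 65694519 in H1792 DMSO and from 51346932 to 79984064 in H1792 AMG900. The 36 genes held 6.30% to 6.86% of all counts in A549 DMSO, 7.06% to 7.36% in A549 AMG900, and 3.33% to 3.49% over the H1792 libraries. A549 DMSO library 1 had the fewest counts and stood apart from the other DMSO libraries of its line on the second principal component, so counts are also given without it. On the second component of the H1792 libraries, DMSO library 1 was at -27.4 and DMSO library 2 at 30.0. The keratin genes *KRT8* and *KRT18* were high in both lines, while *EPCAM*, another epithelial marker, was at or below 3.58 CPM (counts scaled to 1000000 per library) in the DMSO libraries of either line and *CDH1* at or below 0.739 CPM in those of H1792. The summed level of 5 markers of other cell types (*PTPRC*, *PECAM1*, *VWF*, *COL1A1*, *ACTA2*) was 137 to 177 CPM in A549 DMSO and 232 to 243 CPM in A549 AMG900. In H1792 it was 2063 to 2658 CPM in DMSO and 1550 to 1591 CPM in AMG900. *PTPRC*, the leukocyte marker, was at or near 0 in all groups, and *COL1A1* and *ACTA2* made up nearly all of the sums. In A549 these moved in opposite directions, *COL1A1* from a mean of 97.3 CPM to 43.6 CPM (log2 fold change -1.14) and *ACTA2* from 53.7 CPM to 193 CPM (1.85), and in H1792 *COL1A1* was lower (-0.58). Of the epithelial markers, *KRT19* (1.58), *CDH1* (0.82), *KRT8* (0.39) and *KRT18* (0.31) were called higher with AMG900 in A549 and *KRT19* (0.54) in H1792. The part of these shifts in the results that follow was not tested, and in bulk RNA fewer cells of a kind and less RNA per cell cannot be told apart.

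AMG900 moved NRF2 genes in both directions in both lines. In A549, 9 of the 36 genes were higher and 12 were lower at an FDR threshold of 0.01 (edgeR quasi-likelihood test, Benjamini-Hochberg adjustment over all genes tested, as for every adjusted p below). Among all 13174 genes tested in A549, 17.2% were higher and 17.8% lower. In H1792, 34 of the 36 genes had enough counts to be tested, and 9 were higher and 7 lower, against 16.2% higher and 18.8% lower of 15017 genes tested. The median log2 fold change of the NRF2 genes was -0.03 in A549 and 0.03 in H1792, and that of all genes tested was -0.01 and 0.01. Without A549 DMSO library 1, 10 genes were higher and 12 lower in A549, against 21.4% and 22.1% of all genes tested. In H1792 the split leaned on the scaling: 5 genes were higher and 10 lower when libraries were scaled by total counts (12.4% and 21.5% of all genes tested), and 6 were higher and 10 lower after a correction for GC content (14.6% and 22.5%). Leaving out H1792 AMG900 library 2 left 4 genes higher (9.52% of all genes tested), and leaving out DMSO library 3 or AMG900 library 1 left 5 (9.89% and 9.13%). In each of these fits 7 genes were lower, against 12.2% to 13.6% of all genes tested. Calls in these fits were thus fewer over all genes too, compared with 16.2% higher and 18.8% lower when all H1792 libraries were used. Leaving out H1792 DMSO library 1 instead gave 11 genes higher and 10 lower, against 20.1% and 24.1% of all genes tested. Changes were modest: *GCLC* in A549 was the only called change of at least 2-fold.

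**Figure D1:**
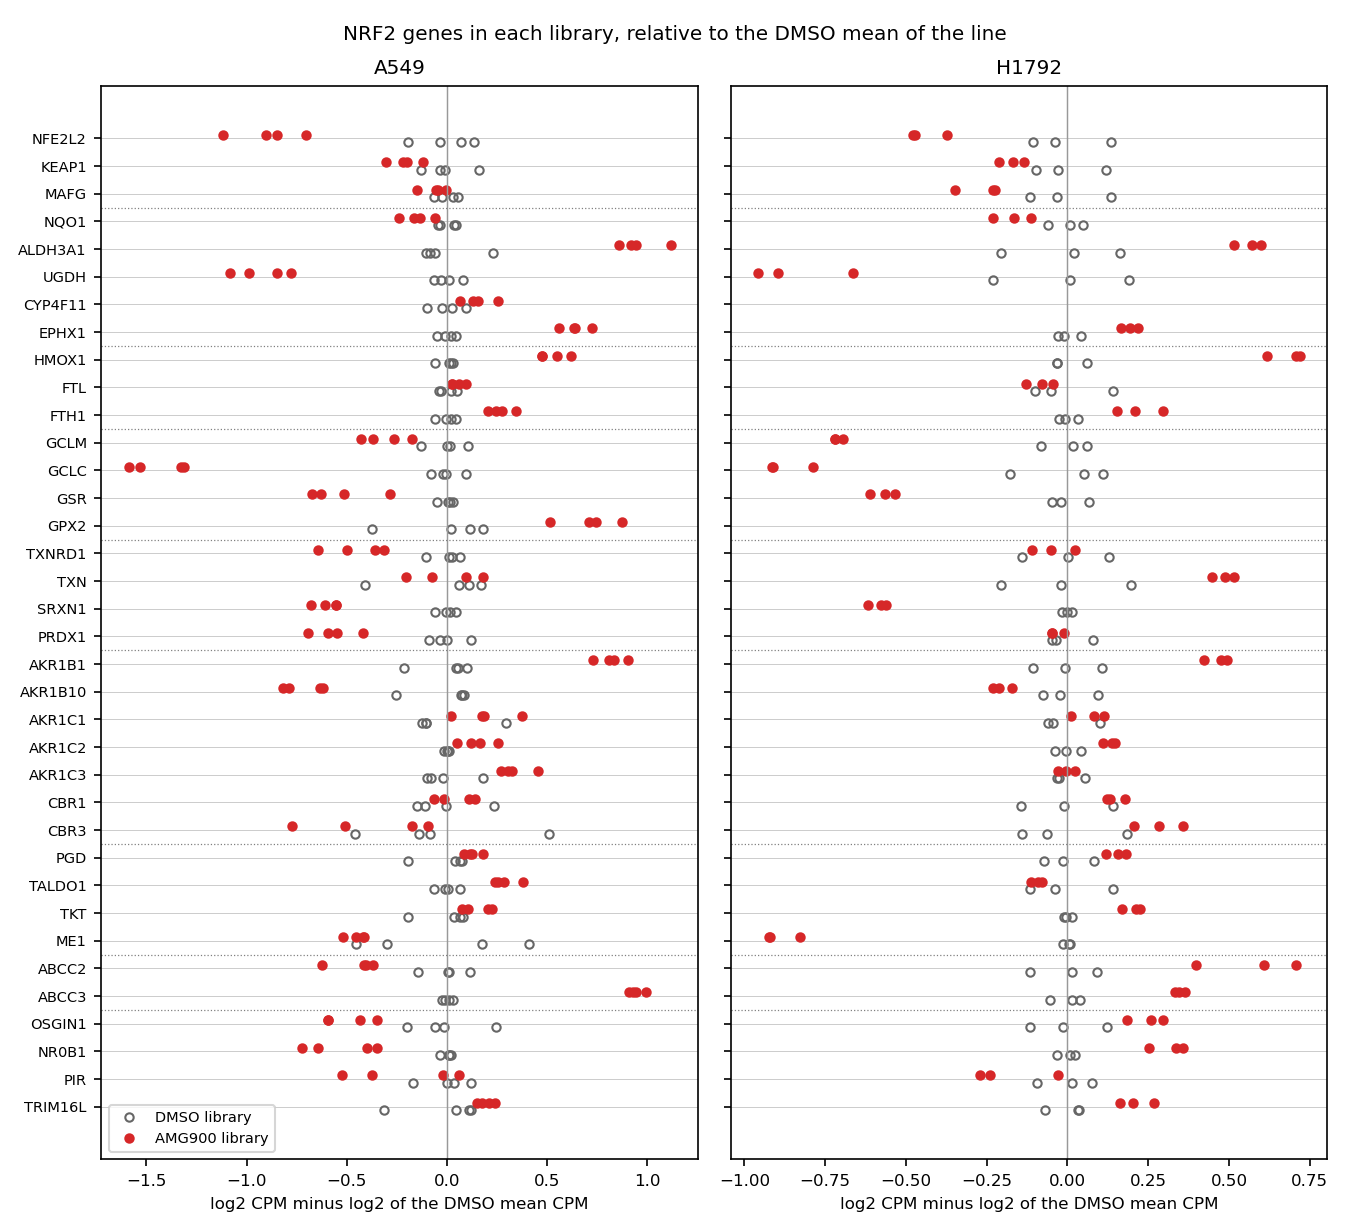
Level of each NRF2 gene in every library (points), as log2 CPM minus log2 of the DMSO mean of the same line, with A549 on the left and H1792 on the right, on x axes of different range. Dotted lines separate the functional groups; GPX2 and CYP4F11 are not drawn for H1792, where their counts are near 0, and the 4 A549 AMG900 points of GCLC sit farthest to the left of their DMSO points.

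The mRNA of the factor itself was lower with AMG900 in both lines. In CPM, *NFE2L2* was at 47.9, 50.1, 44.5 and 39.9 in the A549 DMSO libraries and at 25.3, 24.4, 28.0 and 21.0 in the AMG900 libraries. Every AMG900 library was below every DMSO library. The log2 fold change was -0.88 ± 0.11 (SE, adjusted p = 1.98e-05). In H1792, *NFE2L2* was at 27.2, 32.0 and 28.4 CPM with DMSO and at 21.1, 21.0 and 22.5 CPM with AMG900, again without overlap. The log2 fold change there was -0.44 ± 0.08 (adjusted p = 0.00116). When a spline of transcript GC content was fitted in each library and removed, the value of *NFE2L2* was -0.13 in H1792 and no longer called, while in A549 it was -0.50 and called.

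*KEAP1*, the inhibitor, was at 133, 109, 119 and 117 CPM in A549 DMSO and at 104, 103, 96.8 and 110 CPM in A549 AMG900, where the groups overlapped. In H1792 it was at 128, 111 and 116 CPM with DMSO and at 105, 108 and 102 CPM with AMG900. Its log2 fold changes of -0.21 ± 0.08 in A549 (adjusted p = 0.0414) and -0.17 ± 0.06 in H1792 (adjusted p = 0.0447) missed the threshold. *KEAP1* passed it in both lines with scaling by total counts (-0.28 and -0.24) and after the GC correction (-0.61 and -0.50), and in H1792 without DMSO library 2 (-0.23). *MAFG*, the small MAF partner, had log2 fold changes of -0.06 in A549 and -0.27 in H1792 (adjusted p = 0.0107). The H1792 value of *MAFG* passed in several alternatives, among them DESeq2 (-0.27) and the fits without DMSO library 1 (-0.22) or DMSO library 2 (-0.33). After the GC correction, alone and with transcript length added, *MAFG* was called lower in both lines. Its lowest values over the alternatives were -0.38 in A549 and -0.53 in H1792.

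Of the 4 glutathione genes of the set, *GCLC*, *GCLM* and *GSR* were lower with AMG900 in both lines and the selenium-dependent peroxidase *GPX2* was higher in A549. *GSS*, glutathione synthetase, which completes glutathione synthesis, is among the other pathway genes described further on and was called higher in both lines (0.56 ± 0.07 in A549, adjusted p = 1.05e-05, and 0.26 ± 0.05 in H1792, adjusted p = 0.00139). After a correction for GC content *GSS* was at 0.36 in A549 and called, and at 0.057 in H1792 and not called, and its H1792 call was also lost without DMSO library 3 or AMG900 library 1 or 2 (0.24 to 0.27 over the fits that left out 1 library). *GCLC*, the catalytic subunit of glutamate-cysteine ligase, the rate-limiting enzyme of glutathione synthesis, was at 79.4, 85.0, 78.5 and 75.4 CPM in A549 DMSO and at 27.5, 32.0, 31.7 and 26.4 CPM in A549 AMG900. The groups were widely separated, with a log2 fold change of -1.43 ± 0.09 (adjusted p = 1.61e-08), a 2.70-fold fall. In H1792, *GCLC* was at 31.3, 38.2 and 36.7 CPM with DMSO and at 18.8, 18.8 and 20.5 CPM with AMG900, a log2 fold change of -0.87 ± 0.09 (adjusted p = 3.05e-05). After the GC correction *GCLC* was at -1.25 and -0.74 and called in both lines.

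*GCLM*, the modifier subunit of the same ligase, showed the larger fall in H1792. Its level was 76.9, 69.6 and 74.5 CPM in H1792 DMSO and 45.5, 44.7 and 44.7 CPM in H1792 AMG900, with a log2 fold change of -0.71 ± 0.06 (adjusted p = 1.06e-05). In A549, *GCLM* was at 86.2, 73.3, 81.0 and 80.0 CPM with DMSO and at 71.0, 62.1, 59.6 and 66.6 CPM with AMG900. The groups did not overlap, and the log2 fold change was -0.30 ± 0.08 (adjusted p = 0.00836). This A549 call was lost without DMSO library 3 (-0.30) or 4 (-0.31) and without AMG900 library 2 (-0.28), 3 (-0.26) or 4 (-0.32). After the GC correction the sign of *GCLM* turned in A549, to 0.16, and its value in H1792 was -0.24 and not called. *GCLM* has the transcript with the second lowest GC content of the set, 37.3%.

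*GSR*, which returns oxidized glutathione to its reduced form, was lower in both lines. It ranged in A549 from 298 to 314 CPM with DMSO and from 193 to 253 CPM with AMG900, and in H1792 from 122 to 131 CPM with DMSO and from 82.1 to 86.8 CPM with AMG900, without overlap in either. Its log2 fold change was -0.52 ± 0.08 in A549 (adjusted p = 0.000125) and -0.57 ± 0.05 in H1792 (adjusted p = 2.42e-05), and the GC correction left it called at -0.47 and -0.54. *GPX2* was at 45.1, 63.3, 59.3 and 66.1 CPM in A549 DMSO and at 97.7, 95.6, 107 and 83.5 CPM in A549 AMG900. All AMG900 libraries were above all DMSO libraries, a log2 fold change of 0.70 ± 0.11 (adjusted p = 0.000134). In H1792, *GPX2* had at most 4 counts in a DMSO library and was not tested.

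In the thioredoxin system, the sulfiredoxin gene *SRXN1*, whose product repairs overoxidized peroxiredoxins, was lower in both lines. *SRXN1* was at 321, 310, 299 and 315 CPM in A549 DMSO and at 212, 212, 204 and 195 CPM in A549 AMG900 (log2 fold change -0.60 ± 0.06, adjusted p = 2.69e-06). In H1792 it was at 119, 120 and 117 CPM with DMSO and at 77.3, 80.5 and 79.5 CPM with AMG900 (log2 fold change -0.59 ± 0.05, adjusted p = 1.23e-05). In neither line did the groups overlap, and the GC correction made both changes larger (-0.71 and -0.72).

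*PRDX1*, a peroxiredoxin that reduces hydrogen peroxide, ranged in A549 from 930.2 to 1076 CPM with DMSO and from 611 to 739.6 CPM with AMG900. It was lower there (log2 fold change -0.56 ± 0.07, adjusted p = 1.69e-05), and in H1792 its value was -0.04 ± 0.05. In A549, *TXNRD1*, thioredoxin reductase, ranged from 1044 to 1175 CPM with DMSO and from 719 to 904 CPM with AMG900. Its groups did not overlap there, and it was lower (-0.45 ± 0.07, adjusted p = 0.000209) and at -0.04 ± 0.07 in H1792. Thioredoxin itself, *TXN*, moved the other way in H1792, where it ranged from 221 to 292 CPM with DMSO and from 348 to 364 CPM with AMG900. It was higher there (0.48 ± 0.09, adjusted p = 0.000967), and its value in A549 was 0.00 ± 0.11. In A549 DMSO library 1 *TXN* was at 496 CPM, against 687 to 741 CPM in the other DMSO libraries of the line. *TXN* has the lowest GC content of the set, 36.8%, and its value after the GC correction was 0.47 in A549 and 1.01 in H1792, both called.

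Genes for the handling of quinones, aldehydes, epoxides and lipids did not move as a block. *NQO1*, the quinone reductase commonly read as a marker of NRF2 activity, ranged from 2130 to 2268 CPM in A549 DMSO and from 1865 to 2106 CPM in A549 AMG900. Its log2 fold change was -0.15 ± 0.06 in A549 (adjusted p = 0.0425) and -0.17 ± 0.05 in H1792 (adjusted p = 0.0209), neither called. With scaling by total counts *NQO1* passed the threshold in both lines (-0.22 and -0.23), in H1792 it also passed without DMSO library 1 (-0.22), and after the GC correction it was at 0.03 and -0.04 and not called.

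*ALDH3A1*, an aldehyde dehydrogenase, was at 1696, 1347, 1389 and 1365 CPM in A549 DMSO and at 2625, 2740, 2787 and 3144 CPM in A549 AMG900. The groups were clearly apart, and the log2 fold change of 0.96 ± 0.08 (adjusted p = 2.79e-07) was close to that of the pump *ABCC3* described further on (0.94 ± 0.06). After the GC correction *ALDH3A1* was at 0.58 and called, below *ABCC3* (0.69) and *AKR1B1* (0.65). In H1792 the level of *ALDH3A1* was low, at 1.48, 1.15 and 1.34 CPM with DMSO and at 1.97, 1.90 and 2.01 CPM with AMG900. Its log2 fold change there, 0.56 ± 0.19, was not called (adjusted p = 0.0291).

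*UGDH*, which makes the UDP-glucuronate used for conjugation, was at 200, 216, 195 and 206 CPM in A549 DMSO and at 114, 103, 119 and 96.5 CPM in A549 AMG900 (log2 fold change -0.92 ± 0.08, adjusted p = 3.28e-07). In H1792, *UGDH* was at 43.0, 57.6 and 50.6 CPM with DMSO and at 31.8, 27.1 and 25.96 CPM with AMG900 (log2 fold change -0.83 ± 0.11, adjusted p = 0.00016). Both lines showed lower values in every treated library, and the GC correction reduced the changes to -0.51 and -0.47, both still called.

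*EPHX1*, microsomal epoxide hydrolase, was at 484, 498, 517 and 508 CPM in A549 DMSO and at 779, 782, 740 and 830 CPM in A549 AMG900 (log2 fold change 0.64 ± 0.06, adjusted p = 8.56e-07). In H1792, *EPHX1* ranged from 248 to 260.2 CPM with DMSO and from 284 to 294 CPM with AMG900, a log2 fold change of 0.19 ± 0.05 (adjusted p = 0.00716). The call was lost without DMSO library 3 (0.18) and without AMG900 library 1 (0.18), 2 (0.19) or 3 (0.21), and turned to -0.06 after the GC correction. *CYP4F11*, a fatty acid hydroxylase, was at 9.16, 8.01, 8.45 and 8.73 CPM in A549 DMSO and at 8.98, 10.2, 9.39 and 9.57 CPM in A549 AMG900. Those groups overlapped (log2 fold change 0.16 ± 0.14, adjusted p = 0.368).

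*HMOX1*, the heme oxygenase that degrades heme to biliverdin, iron and carbon monoxide, was higher with AMG900 in both lines. In A549 it ranged from 1457 to 1547 CPM with DMSO and from 2105 to 2325 CPM with AMG900 (log2 fold change 0.53 ± 0.06, adjusted p = 3.23e-06). In H1792, *HMOX1* was at 64.6, 60.7 and 60.7 CPM with DMSO and at 102, 101 and 95.1 CPM with AMG900 (log2 fold change 0.68 ± 0.06, adjusted p = 1.1e-05). The treated libraries lay above the DMSO libraries in both lines. GC makes up 58.5% of the transcript. When corrected for GC content, *HMOX1* was at 0.18 and 0.39 and called in both lines, although with transcript length added the A549 value was 0.13 and not called.

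Of the ferritin subunits, which store iron, the heavy chain *FTH1* ranged in A549 from 14907 to 16030 CPM with DMSO and from 17938 to 19745 CPM with AMG900, and in H1792 from 7191 to 7482 CPM with DMSO and from 8146 to 8976 CPM with AMG900. It was higher in both lines, by 0.27 ± 0.05 on the log2 scale in A549 (adjusted p = 0.000467) and by 0.22 ± 0.05 in H1792 (adjusted p = 0.00377). The H1792 call of *FTH1* was lost without DMSO library 3 (0.20), AMG900 library 1 (0.18) or AMG900 library 2 (0.23), and after the GC correction (0.14). The light chain *FTL*, with 21544 to 22947 CPM the highest gene of the set in A549 DMSO, had log2 fold changes of 0.05 ± 0.05 and -0.08 ± 0.06, neither called, and was called lower after the GC correction in A549 (-0.22) and H1792 (-0.33). Ferritin, *TXN* and *PRDX1* have processed pseudogenes of near-identical sequence, so their counts depend on how multiply mapped reads were handled.

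The aldo-keto reductases split within the AKR1B pair in A549. *AKR1B1*, aldose reductase, was at 3289, 3938, 3970 and 4096 CPM with DMSO and at 7151, 6696, 6802 and 6343 CPM with AMG900 (log2 fold change 0.82 ± 0.07, adjusted p = 3.23e-07). *AKR1B10*, a reductase of retinal and lipid aldehydes, was at 1774, 2244, 2221 and 2227 CPM with DMSO and at 1380, 1364, 1226 and 1198 CPM with AMG900 (log2 fold change -0.71 ± 0.08, adjusted p = 5.58e-06). The treated libraries were all above the DMSO libraries for *AKR1B1* and all below them for *AKR1B10*, and both calls remained after the GC correction (0.65 and -0.70).

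In H1792, *AKR1B1* ranged from 2649 to 3073 CPM with DMSO and from 3825 to 4021 CPM with AMG900 and was higher as well (0.46 ± 0.06, adjusted p = 0.000116), and the value of *AKR1B10* was -0.20 ± 0.06 (adjusted p = 0.0231), which passed the threshold without DMSO library 1 (-0.26). Among the AKR1C reductases of steroids and prostaglandins, *AKR1C3* in A549 ranged from 1721 to 2090 CPM with DMSO and from 2222 to 2528 CPM with AMG900. It was higher there (0.34 ± 0.07, adjusted p = 0.00113) and at -0.00 ± 0.05 in H1792. *AKR1C1* (0.20 and 0.07) and *AKR1C2* (0.15 and 0.13) were not called in either line. *AKR1C1* was called higher in A549 without DMSO library 1 (0.31), where it was at 1021 CPM against 764 to 775 CPM in the other DMSO libraries, and both genes were called higher in both lines after the GC correction (0.49 and 0.28 for *AKR1C1*, 0.50 and 0.40 for *AKR1C2*). The AKR1C genes are close paralogues, so reads may have been split between them in counting. The carbonyl reductases *CBR1* (0.05 and 0.14) and *CBR3* (-0.32 and 0.28) were not called in either line, though in H1792 both passed without DMSO library 1 (0.20 and 0.36).

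Of the 4 genes grouped under NADPH supply, *TALDO1*, transaldolase of the pentose phosphate pathway, was the only one called in A549. It ranged from 609 to 665 CPM with DMSO and from 751 to 827 CPM with AMG900 (0.29 ± 0.06, adjusted p = 0.00115). The *TALDO1* call was lost after the GC correction (0.07). In H1792, *TALDO1* was at -0.09 ± 0.06 and not called (adjusted p = 0.248). It was called lower there after the GC correction, alone and with transcript length added, and its lowest value over the alternatives was -0.38. *ME1*, cytosolic malic enzyme, was lower in H1792: it was at 41.8, 42.4 and 42.4 CPM with DMSO and at 22.3, 22.3 and 23.8 CPM with AMG900, a log2 fold change of -0.89 ± 0.06 (adjusted p = 4.58e-06). In A549, *ME1* was at 64.9, 55.3, 39.8 and 35.7 CPM with DMSO and at 35.7, 36.7, 36.6 and 34.1 CPM with AMG900. DMSO libraries 1 and 2 were high, the groups overlapped, and the change of -0.42 ± 0.15 was not called (adjusted p = 0.0334), though it passed without DMSO library 4 (-0.56). *TKT*, transketolase, ranged in H1792 from 1593 to 1623 CPM with DMSO and from 1804 to 1875 CPM with AMG900 and was higher (0.20 ± 0.04, adjusted p = 0.00348), a call lost without DMSO library 3 (0.21), AMG900 library 1 (0.19) or AMG900 library 2 (0.19). *PGD*, 6-phosphogluconate dehydrogenase, was at 0.13 ± 0.07 and 0.15 ± 0.05, and passed in H1792 without DMSO library 2 (0.19).

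The export pumps for glutathione and glucuronide conjugates moved in opposite directions in A549. *ABCC3* was at 321, 324, 328 and 333 CPM with DMSO and at 629, 622, 649 and 614 CPM with AMG900 (log2 fold change 0.94 ± 0.06, adjusted p = 8.3e-09). *ABCC2* was at 311, 372, 346 and 345 CPM with DMSO and at 265, 260, 258 and 223 CPM with AMG900 (log2 fold change -0.45 ± 0.08, adjusted p = 0.00022). Neither pump showed overlap between the groups in A549, and both calls remained after the GC correction (0.69 and -0.31).

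In H1792, *ABCC3* ranged from 54.2 to 57.8 CPM with DMSO and from 70.9 to 72.4 CPM with AMG900. It was higher by 0.35 ± 0.05 on the log2 scale (adjusted p = 0.000454), which was 0.11 and not called after the GC correction. *ABCC2* was low there, at 1.15, 1.21 and 1.05 CPM with DMSO and at 1.85, 1.497 and 1.73 CPM with AMG900. Its treated libraries were above its DMSO libraries, and the log2 fold change of 0.58 ± 0.20 was not called (adjusted p = 0.033).

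Of the remaining targets, *NR0B1*, an orphan nuclear receptor that acts as a repressor, was the only gene called in opposite directions. In A549 it was at 55.0, 54.6, 53.1 and 54.6 CPM with DMSO and at 32.9, 34.8, 41.2 and 42.7 CPM with AMG900 (log2 fold change -0.52 ± 0.10, adjusted p = 0.000647). In H1792, *NR0B1* was at 49.2, 51.0 and 50.5 CPM with DMSO and at 63.4, 64.4 and 59.8 CPM with AMG900 (log2 fold change 0.32 ± 0.06, adjusted p = 0.00114). The DMSO levels of *NR0B1* were alike in both lines and the treated levels fell on opposite sides of them. Its H1792 call was lost without AMG900 library 2 (0.29) and after the GC correction (0.06), whereas in A549 the corrected value was -0.81.

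*OSGIN1*, a growth inhibitor induced by oxidative stress, ranged in A549 from 71.7 to 97.5 CPM with DMSO and from 54.6 to 64.8 CPM with AMG900 and was lower (-0.48 ± 0.10, adjusted p = 0.00124), and its H1792 value was 0.25 ± 0.07 (adjusted p = 0.0154), which passed without DMSO library 1 (0.29). *PIR*, an iron-binding nuclear protein, had values of -0.18 ± 0.16 and -0.17 ± 0.08, neither called. *TRIM16L* was at 0.19 ± 0.09 in A549 and was called higher in H1792, where it ranged from 86.9 to 93.3 CPM with DMSO and from 102 to 109.6 CPM with AMG900 (0.21 ± 0.06, adjusted p = 0.00967). That call of *TRIM16L* was lost without DMSO library 1 (0.16) or 3 (0.23) and without AMG900 library 1 (0.22), 2 (0.18) or 3 (0.24). The gene shares sequence with *TRIM16*, and reads of the pair may not have been told apart.

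Side by side, 5 genes were called higher in both lines (*HMOX1*, *AKR1B1*, *ABCC3*, *FTH1*, *EPHX1*) and 6 lower in both (*NFE2L2*, *GCLM*, *GCLC*, *SRXN1*, *GSR*, *UGDH*), while 10 were called in neither. Of the 12625 genes tested in both lines, 7.29% were called higher in both, 9.31% lower in both, 1.17% in opposite directions and 44.9% in neither. The effect of AMG900 in H1792 minus that in A549 was tested in a joint fit of all 14 libraries. It was above 0 for 6 genes and below 0 for 6 at the FDR threshold of 0.01, against 5.37% and 9.17% of 14769 genes tested. When A549 DMSO library 1 was left out, 8 and 8 genes passed, against 7.68% and 12.9% of all genes tested. Because the joint fit scales the libraries of both lines together, these values differ slightly from the difference of the separate fits, and the median over all genes was -0.10.

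*ABCC3* (-0.67 ± 0.08, adjusted p = 2.55e-06), *EPHX1* (-0.52 ± 0.08, adjusted p = 0.00012), *TALDO1* (-0.46 ± 0.09, adjusted p = 0.00122) and *AKR1C3* (-0.42 ± 0.09, adjusted p = 0.00185) had log2 fold changes that were more positive in A549. For *ABCC2* (0.96 ± 0.15, adjusted p = 9.95e-05), *NR0B1* (0.75 ± 0.12, adjusted p = 0.000151), *OSGIN1* (0.64 ± 0.14, adjusted p = 0.00167) and *PRDX1* (0.45 ± 0.09, adjusted p = 0.00102) the value was lower in A549. *AKR1C3* lost this call with the size factors of DESeq2 (-0.34).

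The other 4 differences were less stable, and the calls of *GCLM* and *AKR1B1* were also lost with the size factors of DESeq2. *GCLM* fell further in H1792 (-0.48 ± 0.11, adjusted p = 0.00276), a call lost without H1792 AMG900 library 2 (-0.48), and *GCLC* fell further in A549 (0.49 ± 0.13, adjusted p = 0.00851). The call for *GCLC* held in the fits without H1792 DMSO library 2, A549 DMSO library 1 or A549 AMG900 library 2 or 3, and was lost when any other library was left out (0.40 to 0.51). That for *AKR1B10* (0.43 ± 0.12, adjusted p = 0.00905) held only without H1792 DMSO library 2 or A549 DMSO library 1 (0.39 to 0.46 in the others). That for *AKR1B1* (-0.43 ± 0.10, adjusted p = 0.00436) was lost without H1792 DMSO library 2 (-0.37) or 3 (-0.43), any H1792 AMG900 library (-0.44, -0.43 and -0.41) or A549 AMG900 library 1 (-0.41). Without A549 DMSO library 1, *TXNRD1* (0.37), *TXN* (0.52), *ALDH3A1* (-0.57) and *ME1* (-0.69) also passed.

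**Figure D2:**
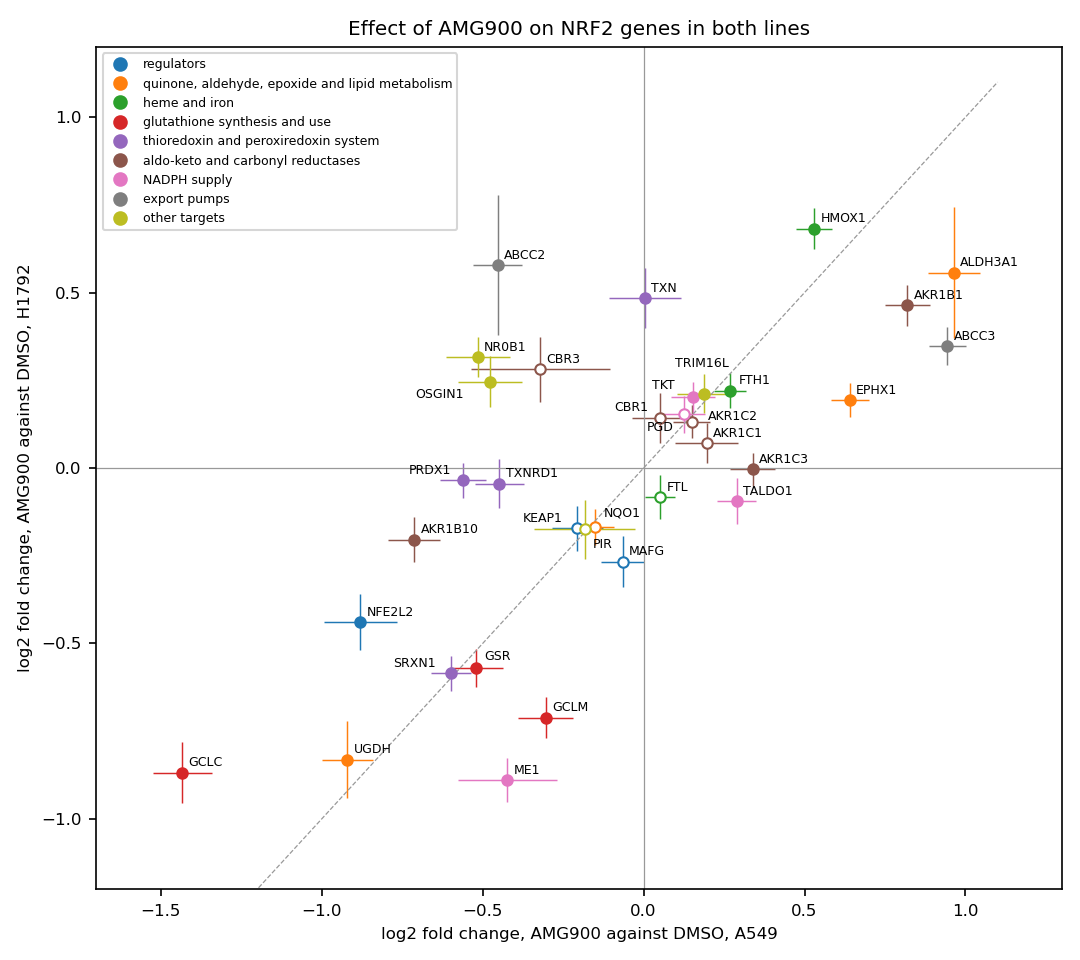
Log2 fold change of AMG900 against DMSO in A549 (x axis) and H1792 (y axis) for the 34 NRF2 genes tested in both lines, with standard errors as bars and functional groups as colours; filled points were called in at least 1 line and the dashed line marks equal change. GCLC and UGDH lie at the lower left, HMOX1, AKR1B1 and ABCC3 at the upper right, and NR0B1, OSGIN1 and ABCC2 at the upper left.

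Without AMG900, most of the NRF2 genes were at higher levels in A549 than in H1792. In the DMSO libraries, 27 of the 36 genes were lower in H1792 and 2 were higher, against 31.9% lower and 34.2% higher of 14769 genes tested. The median log2 difference, H1792 minus A549, was -0.99 for the NRF2 genes and 0.04 for all genes. Scaling by total counts moved the median of all genes to -0.07 and that of the NRF2 genes to -1.10. The counts without A549 DMSO library 1 were 27 lower and 3 higher, against 33.0% and 35.6% of all genes tested. CPM values in this comparison were scaled over all 14 libraries together.

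Leaving aside 4 genes with few counts in H1792, *AKR1B10* and *HMOX1* showed the largest differences of the set. *AKR1B10* was at 2024 ± 235 CPM (SD, n = 4) in A549 and 47.0 ± 2.81 CPM (n = 3) in H1792, a log2 difference of -5.43 ± 0.10 (SE, adjusted p = 3.25e-19). *HMOX1* was at 1450 ± 51.7 CPM and 63.5 ± 2.44 CPM (log2 difference -4.51 ± 0.07, adjusted p = 3.57e-20). *AKR1C2* (-2.49), *ABCC3* (-2.44), *TRIM16L* (-2.05) and *UGDH* (-1.92) followed. *NQO1* was at 2101 ± 40.6 CPM in A549 and 782 ± 28.4 CPM in H1792 (-1.43 ± 0.06, adjusted p = 2.04e-14).

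The thioredoxin and glutathione genes *SRXN1*, *TXN*, *GSR*, *GCLC* and *TXNRD1* lay between -1.29 and -0.998, and all were lower in H1792. The mRNA of *NFE2L2* was at 43.6 ± 3.69 CPM in A549 and 29.9 ± 2.55 CPM in H1792 (-0.54 ± 0.10, adjusted p = 8.79e-05). *KEAP1* was at 114 ± 9.23 and 121 ± 9.58 CPM, a log2 difference of 0.09 ± 0.08 (adjusted p = 0.29) with overlapping libraries.

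The 2 genes that were higher in H1792 were *CBR3* (1.27 ± 0.17, adjusted p = 1.7e-06) and *PIR* (1.15 ± 0.13, adjusted p = 1.2e-07). The log2 differences of *GCLM* (-0.02 ± 0.08), *NR0B1* (-0.01 ± 0.09), *ME1* (-0.07 ± 0.13), *TALDO1* (0.06 ± 0.07), *PRDX1* (0.08 ± 0.06) and *AKR1C1* (0.14 ± 0.09) were not called and the libraries of the lines overlapped. *AKR1C1* was called higher in H1792 without A549 DMSO library 1 (0.24) and after the GC correction, alone and with transcript length added (up to 0.42). *NR0B1* was called lower in H1792 with GC content and transcript length corrected, and its lowest value over the alternatives was -0.25. *AKR1B1* was called lower in H1792 (-0.32 ± 0.07, adjusted p = 0.000539) although its libraries overlapped, and that call was lost without H1792 DMSO library 1 (-0.21).

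For 4 genes, H1792 had few counts. *GPX2* had 0, 4 and 0 counts in the H1792 DMSO libraries against 2794 counts over the A549 DMSO libraries, so that its share of counts was 2456 times higher in A549 (95% exact interval 958 to 9020). *CYP4F11* had 9 counts over the H1792 DMSO libraries and 387 over those of A549, a ratio of 151 (78.8 to 333). *ALDH3A1* had 212 and 63593 counts, a ratio of 1055 (922 to 1213), and *ABCC2* had 180 and 15849 counts, a ratio of 310 (267 to 361). These intervals cover counting error only. All 4 genes are among the 27 counted as lower in H1792, but *GPX2* and *CYP4F11* entered the joint fit only through their A549 counts. With at least 10 counts required in every library, 25 genes were lower and 2 higher, against 32.1% and 36.4% of 10666 genes.

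Per kilobase of the longest transcript, the order of levels within a line began with *FTL*, *FTH1* and *AKR1B1* in both. *FTL* was at 25463 ± 743 CPM per kilobase in A549 DMSO and 16539 ± 1488 in H1792 DMSO, and *FTH1* at 12921 ± 396 and 6082 ± 124. *AKR1B1* was at 1981 ± 188 in A549 and 1479 ± 110 in H1792. In A549, *AKR1C3* (1314 ± 120) and *AKR1B10* (1307 ± 141) came next and did not differ beyond their spread, nor did *TXN* (894 ± 150), *HMOX1* (894 ± 23.9) and *NQO1* (870 ± 28.2). In H1792 the next places were taken by *PRDX1* (755 ± 36.8), *AKR1C3* (529 ± 17.7) and *TALDO1* (503 ± 46.5), the last 2 within their spread. *NFE2L2*, at 8.94 ± 0.87 CPM per kilobase in A549 DMSO, ranked 33 of the 35 genes with a transcript length (*TRIM16L* had none). With the summed length of all exons in place of the longest transcript, *FTH1* was at 7756 in A549, *AKR1B10* (1194) came before *AKR1B1* (1046), and *AKR1C3* dropped to 472, so the order below *FTH1* depends on the length used.

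**Figure D3:**
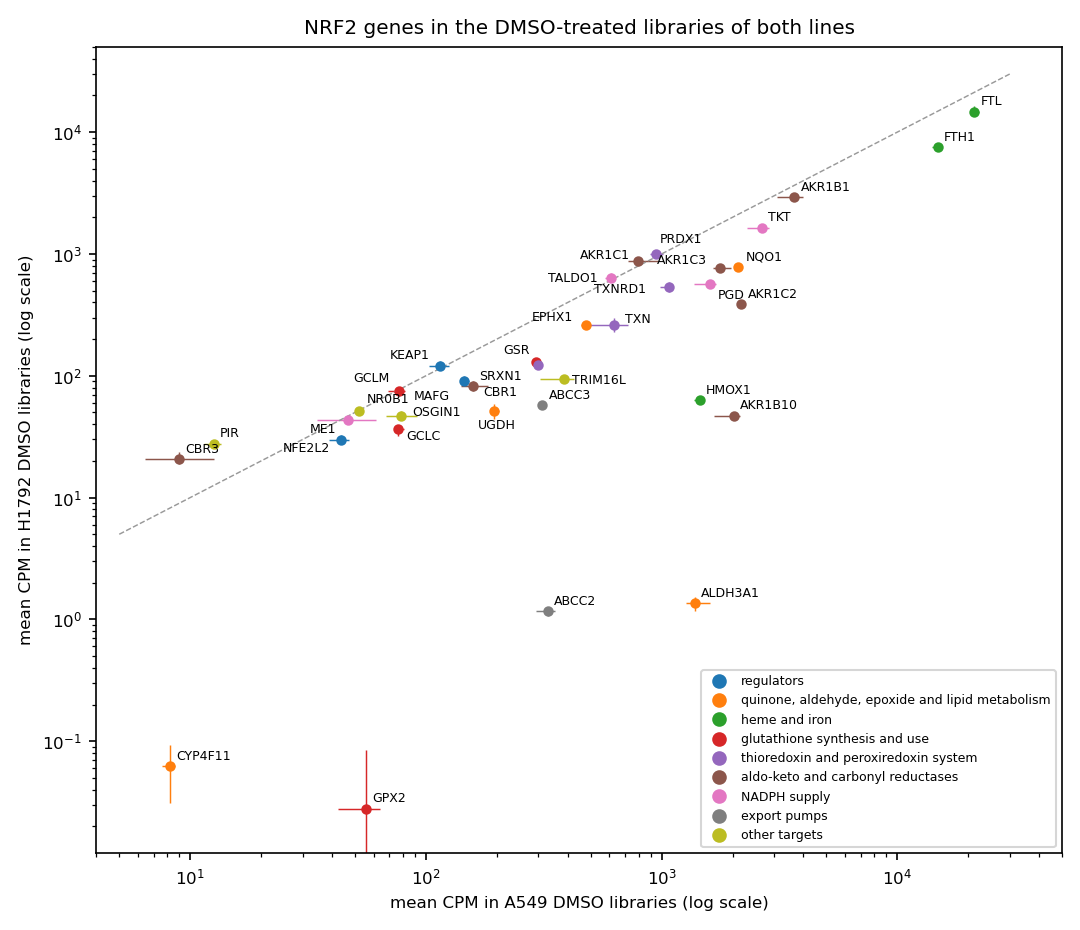
Mean CPM of each NRF2 gene in the DMSO libraries of A549 (x axis, 4 libraries) and H1792 (y axis, 3 libraries), both on log scales, with bars from the lowest to the highest library and a dashed line of equal level. Most genes lie below the line, with GPX2, CYP4F11, ABCC2 and ALDH3A1 farthest from it; the lower bar of GPX2 runs to the edge of the plot because 2 H1792 libraries had 0 counts.

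A wider set of 35 other NRF2 pathway genes and a set of 20 other antioxidant enzymes gave the surroundings of these results. Of the other NRF2 pathway genes, 13 of 33 tested were higher and 8 lower in A549, and 8 of 32 were higher and 10 lower in H1792. Of all genes tested, 17.2% were higher and 17.8% lower in A549, and H1792 had 16.2% higher and 18.8% lower. The pathway genes had median log2 fold changes of 0.18 and 0.00. Of the other antioxidant enzymes, 7 of 20 were higher and 4 lower in A549, and 5 of 20 were higher and 2 lower in H1792, with medians of 0.11 and 0.10. The effect in H1792 minus that in A549 was below 0 for 10 of 35 and 4 of 20 of these genes in the edgeR fit, and for 9.17% of all genes tested. It was above 0 at this threshold for 0 genes of either set (5.37% of all genes), with 1 gene of each set above 0 at an unadjusted p under 0.05 and, with DESeq2, 0 pathway genes and 1 enzyme called. In the DMSO libraries, 11 of the 35 pathway genes were higher and 18 lower in H1792, as were 9 and 6 of the 20 enzymes, against 34.2% higher and 31.9% lower of all genes.

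The largest increases in A549 were those of *SOD2*, mitochondrial superoxide dismutase (log2 fold change 1.75 ± 0.06, adjusted p = 2.42e-11), *MAFF*, another small MAF protein (1.37 ± 0.15), *CES1*, a carboxylesterase (1.12 ± 0.16), and *GPX1*, a glutathione peroxidase (0.96 ± 0.11). In H1792 the value of *SOD2* was 0.07 ± 0.05. The largest decreases in A549 were those of *ABCG2* (-1.74 ± 0.49, adjusted p = 0.0089), *ABCC4* (-1.38 ± 0.18), *PRDX3* (-0.80 ± 0.10) and *SLC7A11*, the cystine importer that supplies glutathione synthesis (-0.65 ± 0.10, adjusted p = 0.000158). *ABCG2*, a drug efflux pump, ranged from 5.05 to 26.6 CPM in A549 DMSO and from 1.70 to 4.15 CPM in A549 AMG900, and the change was -0.92, still called, without A549 DMSO library 1. The call was lost without any one of AMG900 libraries 1 (-1.58), 2 (-1.69), 3 (-2.002) and 4 (-1.71), after the GC correction (-1.28, and -1.25 with length added), with a replicate block (-1.48) and with at least 10 counts in every library (-1.69).

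In H1792 the largest decreases were those of *NFE2L3*, a relative of *NFE2L2* (-1.15 ± 0.07, adjusted p = 2.79e-06), *BACH1*, a repressor at AREs (-1.15 ± 0.15, adjusted p = 0.000156), *ABCC4* (-1.10 ± 0.20) and *SLC7A11* (-0.87 ± 0.08, adjusted p = 1.96e-05). The largest increases were those of *PRDX5* (0.42 ± 0.07), *MAFF* (0.41 ± 0.06), the heme transporter *SLC48A1* (0.39 ± 0.06) and *MAFK* (0.39 ± 0.06), and after the GC correction these were at 0.10, 0.07, 0.11 and 0.04 and not called. After that correction *SLC7A11* was at -0.16 and not called in A549 and at -0.27 and called in H1792, *BACH1* was at -0.74 in H1792 and *GPX1* at 0.51 in A549, both called.

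The log2 fold changes of all genes followed the GC content of their transcripts, with a Spearman correlation of 0.49 over 12788 genes in A549 and of 0.47 over 14373 genes in H1792. This is a description across genes, which are not independent and share the libraries. The 35 NRF2 genes with a value had GC contents from 36.8% to 63.4%, with a median of 51.4%. With a spline of GC content fitted in each library, 11 genes were higher and 14 lower in A549, and 6 and 10 in H1792. Of all genes tested, 13.8% were then higher and 18.3% lower in A549, and 14.6% and 22.5% in H1792. With GC content alone and with transcript length added, 11 of the 12 genes lower in A549 remained called, as did 5 of the 7 lower in H1792 (*GCLC*, *SRXN1*, *GSR*, *UGDH*, *ME1*). Of the higher genes, 6 of 9 remained in A549 (*AKR1B1*, *ABCC3*, *ALDH3A1*, *GPX2*, *AKR1C3*, *EPHX1*) and 3 of 9 in H1792 (*HMOX1*, *TXN*, *TRIM16L*), where *TRIM16L* had no GC value and was not corrected. Among calls that remained, GC correction changed the size by over 1.5 times in A549 for *TXNRD1* (-0.29), *AKR1C3* (0.56), *EPHX1* (0.36) and *OSGIN1* (-0.92), and in H1792 for *ME1* (-0.52) and *AKR1B1* (0.28). With length added, *GPX2* was at 0.46 and *ABCC2* at -0.27 in A549, both called, while *FTH1* in A549 (0.13) and *AKR1B1* in H1792 (0.20) were no longer called. All 12 differences between the lines remained called under both corrections, as did all 29 differences between the DMSO libraries. Whether the trend comes from the libraries or from the cells was not tested.

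**Figure D4:**
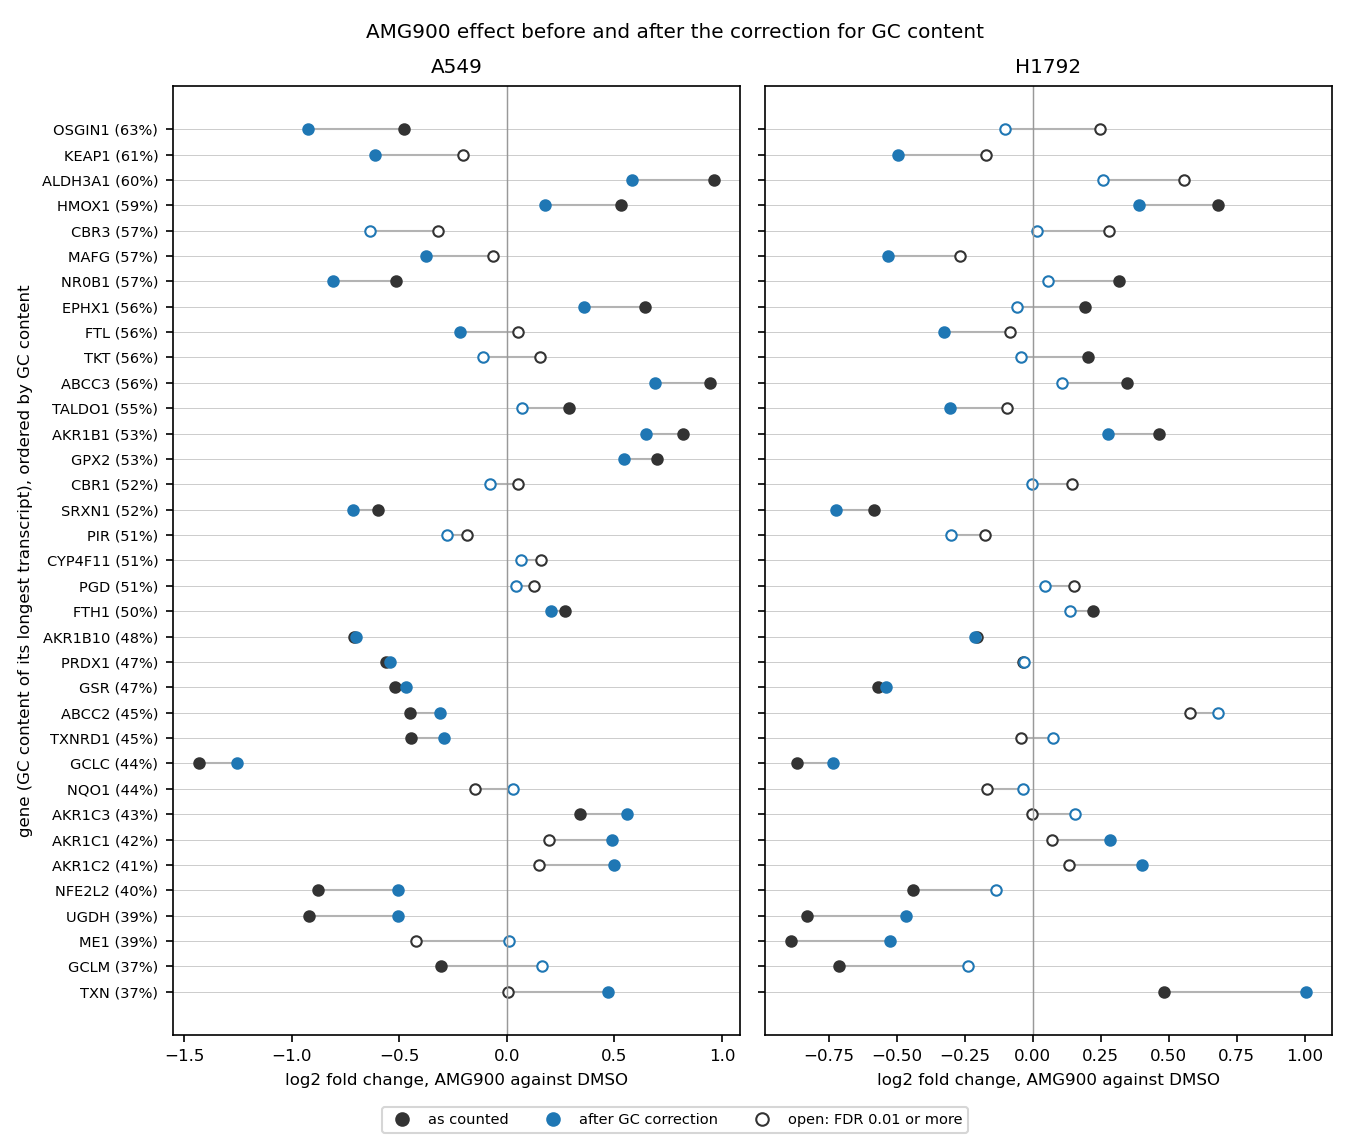
Log2 fold change of AMG900 against DMSO for the 35 NRF2 genes with a GC value, as counted (dark) and after the correction for GC content (blue), ordered by GC content from high (top) to low (bottom), in A549 (left) and H1792 (right) on x axes of different range. GPX2 and CYP4F11 were not tested in H1792 and have no points there. Filled points passed the FDR threshold of 0.01; genes of high GC content, such as OSGIN1 and HMOX1, shift down and genes of low GC content, such as GCLM and TXN, shift up, while GCLC and SRXN1 stay filled and below 0 in both lines.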

How the data were processed

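Per the labels, the submitters' processing notes name STAR, HTSeq and the GRCh37 build, and counts are given per gene symbol; versions, annotation, strand and multi-mapping options were not given in the sources used here. The authors deposited 1 table of raw read counts per line, not normalized, with 26760 entries each. In H1792, 28 entries named by dates (0.101% to 0.117% of counts) were left out. The 36 genes and the other lists were chosen with earlier results of these data known.

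R 4.3.3, edgeR 4.0.16, limma 3.58.1 and DESeq2 1.42.0 were used. Each line was fitted on its own table with filterByExpr, TMM scaling and edgeR's quasi-likelihood test (glmQLFit, glmQLFTest), adjusted by Benjamini-Hochberg over all genes, at an FDR threshold of 0.01. Differences between lines came from a joint fit of all 14 libraries on shared symbols. CPM values are counts scaled by TMM to 1000000 per library. Replicates varied with a biological coefficient of variation of 12.8% (A549) and 9.60% (H1792). GC content and length came from the longest GENCODE transcript in GRCh37. GC correction used natural splines (5 degrees of freedom) per library as offsets, and genes without a GC value were left uncorrected. The steps were tested on simulated data.

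All 36 genes are named. Values of every library are given for genes called with a change of at least 1.5-fold, for *NFE2L2* and *KEAP1*, and for genes low in a line; of the other lists, up to 4 called genes per direction and line with the largest change are named. *NR0B1* was added to the genes given in full, and *GSS* to those named, after their values were seen. Same-numbered libraries of a line did not deviate together, so no replicate term was used. Alternatives were DESeq2, its size factors, total-count scaling, other filters and thresholds, a replicate block, GC and length corrections, exon-union length, and leaving out each library.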

Additional observations from a re-analysis of the deposited data

Results flagged for a closer look

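In A549 DMSO library 1, 4 genes lay far from the other 3 libraries of the group by Dixon's test at the 95% level. *AKR1B10* was at 1774 CPM (others 2221 to 2244), *AKR1C1* at 1021 CPM (764 to 775), *ALDH3A1* at 1696 CPM (1347 to 1389) and *PGD* at 1460 CPM (1719 to 1761). The test was run on 72 sets of 4 A549 libraries and marked 4 of them (5.56%), and chance marks about 1 in 20. All 4 fell in this library, which also has the fewest counts. Leaving it out did not end the A549 calls of *AKR1B10* or *ALDH3A1*.

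For 12 of the 36 genes, the effect of AMG900 differed between the lines in the joint edgeR fit. The log2 fold change in H1792 minus that in A549 was above 0 for *ABCC2* (0.96), *NR0B1* (0.75), *OSGIN1* (0.64), *GCLC* (0.49), *PRDX1* (0.45) and *AKR1B10* (0.43). It was below 0 for *ABCC3* (-0.67), *EPHX1* (-0.52), *GCLM* (-0.48), *TALDO1* (-0.46), *AKR1B1* (-0.43) and *AKR1C3* (-0.42). The differences for *GCLC*, *GCLM*, *AKR1B10* and *AKR1B1* lost their calls when some libraries were left out. Those for *GCLM*, *AKR1B1* and *AKR1C3* lost them with DESeq2 size factors, and that for *AKR1B1* also with total-count scaling. With a replicate block the calls of *GCLC*, *AKR1B10* and *AKR1B1* were lost.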

How the results depend on the processing

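Over 2880 recomputed values of the 36 genes, 2558 kept their direction and their side of the threshold, 146 lost a call, 76 gained a call, 9 changed sign where a call was involved, and 91 changed sign without being called in either fit. With a change of at least 2-fold required, 0 genes were higher and 1 lower in A549, 0 and 0 were called in H1792, 0 and 0 between the effects in the lines, and 17 were lower in H1792 DMSO. Of all genes tested, 5.28% and 5.84% passed in A549, 3.17% and 5.20% in H1792, and 2.67% and 3.49% between the effects. For H1792 DMSO against A549 DMSO, 19.0% were lower. In H1792, an FDR threshold of 0.05 gave 15 higher and 11 lower (24.6% and 25.8% of all genes tested). Total-count scaling gave 5 higher (12.4% of all genes), and GC with length 11 lower (22.9%). The size factors of DESeq2 left 3 genes with an effect more positive in A549 (6.99% of all genes). Leaving out 1 library at a time gave 4 to 11 genes higher in H1792, while 9.13% to 20.1% of all genes were higher in these fits. The cause was not tested.

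Signs turned with GC correction and with length added for *GCLM* (0.16 and 0.20) and *FTL* (-0.22 and -0.31) in A549 and for *EPHX1* (-0.060 and -0.14) and *GPX1* (-0.15 and -0.20) in H1792. They turned for *TKT* in H1792 with GC alone (-0.043), and with length added for *NR0B1* in H1792 (-0.021) and for *TALDO1* (-0.28) and *GPX1* (-0.16) between the DMSO libraries.

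Same-numbered libraries had correlations of deviations from -0.06 to 0.04, so the numbers were not taken to pair them. With a replicate block, 9 genes were higher and 11 lower in A549, 6 and 8 in H1792, and 4 and 5 differed between the lines. Of all genes tested, 14.6% and 15.1% were called in A549, 14.5% and 17.4% in H1792, and 4.09% and 6.66% between the lines. Of the 7 replicate numbers, 1 gave its best match with itself. *GPX2* and *CYP4F11* had no value in H1792 DMSO against A549 DMSO with at least 10 counts in every library. *GPX2* and *CYP4F11* had almost no counts in H1792 although its libraries were the deepest, and the spread of A549 DMSO limits *ME1* and *CBR3*. The per-kilobase order depends on the transcript length used.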
